A study of Mus musculus with 24 samples.

Results

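The second interval of a retinoic acid (RA) time course, from 3 h to 6 h, was examined in BAP1-AID mouse embryonic stem cells (ESCs). Its members were the 8 libraries whose labels name this line at 3 h or 6 h of RA, of 24 libraries in the series: 4 at 6 h against 4 at 3 h, each time with 2 libraries without indole-3-acetic acid (−IAA) and 2 with it (+IAA). In these cells BAP1, a deubiquitinase that removes ubiquitin from histone H2A, carries an auxin-inducible degron (AID) tag, and the ubiquitin ligase adaptor TIR1 is stably expressed, so that the auxin IAA triggers breakdown of the tagged protein. All libraries were poly(A) RNA. Per the study's methods, the line came from monoclonal cells, IAA was given before RA, and RA was given in medium without the cytokine LIF, so that RA, removal of LIF and time in culture cannot be told apart. The 4 libraries of the same line at 0 h and the 12 libraries of UTX-AID, another line of the same design with the histone H3K27 demethylase UTX tagged, were used for comparison. The labels do not say whether replicates came from separate cultures, so p-values measure the spread between these libraries.

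RA binds retinoic acid receptors that sit on DNA with RXR partners and, once bound, switch from repressing to activating nearby genes. Its best known targets in ESCs are the Hox genes, which give cells their position along the body axis and lie in 4 clusters, and the enzymes and receptors of the RA pathway itself, which limit the signal. Many of these genes are held silent in ESCs by Polycomb repressive complexes. Fgf5 and Otx2 mark the formative epiblast, a state between naive pluripotency and lineage commitment.

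Levels are given as CPM, in which each library's counts are divided by its TMM-adjusted total, with the 4 libraries of a time always in the order −IAA replicates 1 and 2, then +IAA replicates 1 and 2. CPM is not corrected for gene length, so levels are compared between times and never between genes. Changes are log2 fold changes of 6 h against 3 h ± SE from edgeR's quasi-likelihood test with the IAA arm as covariate and Benjamini-Hochberg adjustment over the 15309 genes tested. A gene "passed" at an adjusted p under 0.05, and was "called" where its log2 fold change was also beyond 1 in size. In bulk RNA, a change in the number of cells of a type and a change of RNA per cell cannot be told apart.

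From 3 h to 6 h, 71 genes were called higher (0.464% of those tested) and 19 were called lower (0.124%). By the adjusted p alone, 417 genes were higher (2.72%) and 383 lower (2.5%), and the median of all genes was 0.01. Counts of list members given below are to be read beside these shares. Predicted genes, the uncertain Rsc1a1 and Dsc3, which was at 0 in every 3 h library, are set aside here. The other genes called higher included Olig3, Kcnh1, Greb1l, Stra8, Hoxb6, Hoxb7 and Hoxb8. Of the 71, 12 were Hox genes. Those called lower included the epiblast growth factor genes Fgf5 and Fgf15. The 4 libraries of one time lay wholly above the 4 of the other for 69 of the 71 genes called higher and 17 of the 19 called lower, beside 4.47% and 4.45% of all genes tested. As the genes were called on these same libraries, this is a description and no support. Within the −IAA arm alone 20 genes were called higher and 1 lower, and within +IAA alone 113 and 61, of which 17 and 1, and 56 and 13, were among the 71 and 19.

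Several features of the libraries moved with time or arm. Totals were between 48392851 and 52766527 counts, and 3 counts, taken as the limit of detection, corresponded to between 0.0576 and 0.0619 CPM. The replicates of the −IAA 3 h group stood apart from each other, with a chi-square of 71.2 per gene against 6.01 to 9.50 in the other 3 groups. Without −IAA 3 h replicate 1, 88 genes were called higher and 23 lower, and 1112 and 987 passed. Leaving out either +IAA 3 h library or any 6 h library left 207 to 248 genes passing as higher and 173 to 224 as lower, whereas without −IAA 3 h replicate 2 the counts were 451 and 429. Each library's deviation from the mean of the BAP1-AID libraries was compared with the GC content of genes. The Spearman coefficients were 0.206 to 0.459 in −IAA and -0.487 to -0.244 in +IAA at 3 h and 6 h, so GC content moved with the arm. For length they were -0.409 and 0 in −IAA 3 h replicates 1 and 2. Log2 fold changes also followed the GC content of genes, with a Spearman coefficient across genes of -0.40 before and -0.01 after a correction for GC content and length. After this correction 70 genes were called higher (0.457%) and 21 lower (0.137%), of which 65 and 19 were among the 71 and 19, and 388 (2.53%) and 418 (2.73%) passed. Bap1 RNA, which IAA is not designed to alter, stood at 103, 95.2, 102 and 104 CPM at 3 h and 93.6, 95.9, 98 and 92.4 CPM at 6 h.

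**Figure D1:**
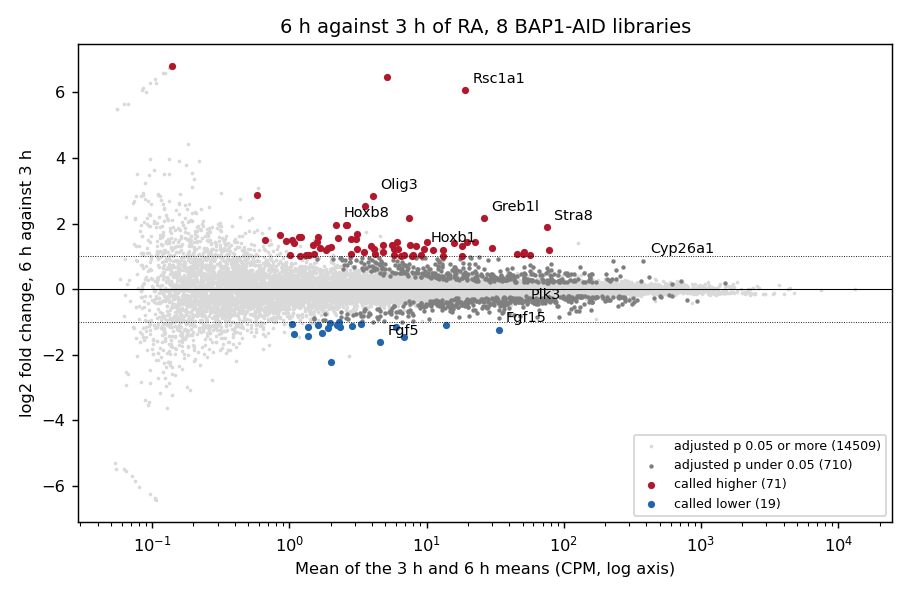
The log2 fold change of 6 h against 3 h (vertical axis) is plotted against the mean of the 3 h and 6 h levels in CPM (horizontal log axis) for the 15309 genes tested in the 8 BAP1-AID libraries. The 71 genes called higher (red) lie above the upper dotted line at 1, the 19 called lower (blue) lie below the lower one at -1, and other genes past the adjusted p are dark grey.

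The neural progenitor gene Olig3, which encodes a basic helix-loop-helix factor of the dorsal neural tube, rose in the second interval. Its levels were 0.414, 0.820, 0.474 and 0.639 CPM at 0 h, 1.16, 0.269, 1.26 and 1.45 CPM at 3 h and 6.87, 7.22, 7.17 and 7.36 CPM at 6 h. All 6 h libraries were above every 3 h and 0 h library, and those of 0 h and 3 h overlapped (log2 fold change 2.84 ± 0.32, adjusted p = 0.000663). Kcnh1, a voltage-gated potassium channel gene, stood at 0.583, 0.488, 0.322 and 0.739 CPM at 0 h, 0.805, 1.29, 0.784 and 1.31 CPM at 3 h and 5.56, 5.77, 5.82 and 7.12 CPM at 6 h, with no overlap between times (log2 fold change 2.53 ± 0.20, adjusted p = 5.96e-05). Ankrd44, encoding an ankyrin repeat protein, stood at 1.41, 0.898, 0.909 and 0.939 CPM at 0 h and 0.866, 2.03, 1.69 and 1.33 CPM at 3 h, which overlapped, and at 3.89, 6.11, 4.27 and 4.79 CPM at 6 h (log2 fold change 1.68 ± 0.25, adjusted p = 0.00362). Meis1, a homeobox cofactor gene, was at 2.72, 5.14, 3.90 and 3.11 CPM at 3 h and 8.74, 9.38, 8.52 and 8.20 CPM at 6 h (log2 fold change 1.23 ± 0.17, adjusted p = 0.00238), with 0 h libraries of 3.31, 3.06, 2.75 and 2.52 CPM. In these 4 genes the second interval held most of the difference from 0 h.

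Greb1l and Stra8 had the smallest p-values among the genes called higher, and both were already up at 3 h. Stra8, which germ cells need to enter meiosis and which is named for its stimulation by RA, was at 0.226, 0.566, 0.189 and 0.379 CPM at 0 h. It reached 27.8, 31.1, 33.8 and 35.4 CPM at 3 h and 106, 111, 129.7 and 129 CPM at 6 h, with no overlap between any of the times (log2 fold change 1.89 ± 0.06, adjusted p = 8.17e-08). Greb1l, a gene needed for kidney development, went from 8.19, 7.99, 11.9 and 9.91 CPM to 36, 35.5, 49 and 51.1 CPM (log2 fold change 2.17 ± 0.07, adjusted p = 1.18e-07), a fitted 4.51-fold difference. Of the 15 germline genes tested, 2 rose, Stra8 and the RNA-binding protein gene Dazl (0.50 ± 0.10, its libraries overlapping), 0 fell, and the median of the list was 0.24. Without +IAA 3 h replicate 2, +IAA 6 h replicate 1 or −IAA 6 h replicate 2, 1 of them rose.

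Other genes that led the ranking had low levels. Cemip, which encodes a hyaluronan-binding protein, rose from 1.09, 1.86, 1.01 and 0.430 CPM to 5.10, 3.72, 3.92 and 3.61 CPM (1.95 ± 0.29). The cytokine gene Il33 rose from 0.990, 1.36, 1.86 and 1.62 CPM to 4.47, 3.66, 4.13 and 4.33 CPM (1.53 ± 0.18), and the adenylate kinase gene Ak5 (1.66 ± 0.30) and the sperm protein gene Zan (1.58 ± 0.23) also rose. Cdx1, a caudal homeobox gene known to act on Hox genes, was at or below the limit of detection in all 0 h libraries but 1, at 1.46, 0.845, 0.681 and 0.369 CPM at 3 h and at 2.38, 2.25, 2.59 and 2.37 CPM at 6 h (log2 fold change 1.58 ± 0.32, adjusted p = 0.0171). It was the only one of 11 tested Cdx and mesoderm factors that passed, and no factor of this list rose without +IAA 3 h replicate 1 or without either +IAA 6 h library. Without −IAA 3 h replicate 1 or −IAA 6 h replicate 2, 1 factor of the list fell. Among the predicted genes, 1700031F05Rik (2.88 ± 0.61), Gm14434 (2.18 ± 0.32) and Gm973 (1.47 ± 0.36) were called higher and Gm20544 (-1.04 ± 0.19) lower. Gm2260 rose from 0.124, 0.115, 0.103 and 0.102 CPM to 16.9, 2.84, 17.4 and 3.67 CPM, and at 6 h the replicates of both arms differed widely. Dsc3, a desmosomal cadherin gene, was called higher but was at 0 in every 3 h library and at 0.483, 0.117, 0.155 and 0.361 CPM at 6 h, so no fold is given.

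Rsc1a1, another gene with a large fitted change, is uncertain. It stood at 32.2, 0.332, 34.8 and 39.5 CPM at 0 h, 1.75, 0.0576, 0.165 and 0.348 CPM at 3 h and 42.3, 35.6, 35 and 37.5 CPM at 6 h (log2 fold change 6.06 ± 0.47, adjusted p = 5.5e-05), so that 1 of the 4 libraries at 0 h resembled those at 3 h. In RefSeq annotation (assembly GRCm38.p6) Rsc1a1 lies within the transcribed span of Ddi2, whose level moved the other way, from 109.6, 139.7, 133 and 128 CPM to 89.3, 96.1, 104 and 98.2 CPM (-0.40 ± 0.08). How the authors' counting divided reads between these 2 genes is not stated, and the change of Rsc1a1 is not read here as a response.

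The Hox clusters had the highest median of the lists examined. Of 39 Hox genes, 26 were tested, 14 rose, 12 of them called, and 0 fell, with a median of 1.04. All 14 were in 2 clusters: 6 of 9 tested Hoxa genes and 8 of 10 tested Hoxb genes, against 0 of 2 Hoxc and 0 of 5 Hoxd genes. Except for Hoxd13, the tested Hoxc and Hoxd genes had means below 1 CPM at both times. Their log2 fold changes, from -2.98 for Hoxd11 to 2.70 for Hoxd8, rest on few counts and enter the median. A contrast between clusters is thus not read. The count was 12 to 15 when 1 library was left out, and 14 after correction for GC content and length.

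Hoxb1, an early RA target at the 3′ end of its cluster (mm39, chr11:96256578-96259082, plus strand), rose from 5.98, 5.36, 6.43 and 5.12 CPM to 14.1, 13.7, 12.2 and 13.1 CPM (log2 fold change 1.21 ± 0.10, adjusted p = 7.27e-05). Along the Hoxb cluster, the first 5 paralogs had log2 fold changes between 1.02 for Hoxb4 and 1.42 for Hoxb2. The next ones were 1.96 ± 0.33 for Hoxb6, 1.60 ± 0.34 for Hoxb7 and 1.97 ± 0.18 for Hoxb8, which are expressed further back in the embryo.

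Those more posterior genes were still low at 6 h. Hoxb8 (chr11:96172731-96176160, plus strand) was at 0, 0, 0.0568 and 0 CPM at 0 h, 0.928, 1.07, 0.660 and 0.881 CPM at 3 h and 3.83, 4.42, 3.15 and 2.59 CPM at 6 h, and its 3 times did not overlap. Hoxb6 was at 0 in every 0 h library and rose from 1.42, 1.32, 0.309 and 1.29 CPM to 4.13, 4.95, 3.15 and 4.31 CPM. Hoxa7 rose from 0.578, 1.15, 0.351 and 0.430 CPM to 2.76, 1.39, 1.16 and 1.89 CPM (1.58 ± 0.35). Hoxb9, with means of 0.470, 1.12 and 2.17 CPM at 0 h, 3 h and 6 h, did not pass (log2 fold change 0.95 ± 0.26, adjusted p = 0.0672), nor did Hoxb13, with means of 0.336, 7.13 and 8.64 CPM (log2 fold change 0.28 ± 0.09, adjusted p = 0.13).

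In the Hoxa cluster, Hoxa5 had a log2 fold change of 1.32 ± 0.09, Hoxa4 of 1.32 ± 0.19, Hoxa3 of 0.91 ± 0.10 and Hoxa2 of 0.89 ± 0.17, and all 4 passed. The GENCODE annotation places Hoxa4 and Hoxa5 inside a longer Hoxa3 transcript unit on the same strand, and antisense RNAs overlap Hoxa2 (Hotairm1), Hoxa3 to Hoxa7 (Hoxaas3), Hoxb2 and Hoxb3 (Hoxb3os) and Hoxb5 to Hoxb9 (Hoxb5os). The strandedness of the libraries is not stated, so reads of these partners cannot be told apart. Hoxb1 and Hoxb4 have no such overlap, and Hoxb4 rose from 13.2, 13.7, 9.78 and 11.6 CPM to 25.7, 26.2, 23.5 and 21.9 CPM (1.02 ± 0.08).

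The TALE homeobox genes, whose proteins bind DNA together with Hox proteins, were higher where they passed. Of 11 tested, 5 rose, 0 fell and 6 did not pass, with a median of 0.49. In each fit that left out 1 library 5 rose, and 1 fell without −IAA 3 h replicate 1 or after correction for GC content and length. In UTX-AID 2 of the 11 rose and the median was -0.08. Meis2 went from 11.4, 10.7, 13.4 and 11.4 CPM at 0 h to 27.9, 33.7, 32.2 and 34.4 CPM at 3 h and 71, 69.3, 66.5 and 73.9 CPM at 6 h, with no overlap between times (log2 fold change 1.13 ± 0.07, adjusted p = 1.65e-05). Pbx2 rose by 0.49 ± 0.05 and Pknox2 by 0.95 ± 0.15 on the log2 scale.

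The RA-degrading enzyme genes Cyp26a1 and Cyp26b1 rose, and RA receptor genes differed in direction. Of 15 genes tested on the list of RA breakdown and feedback, 8 rose and 2 fell, with a median of 0.52. The 2 that fell were Rara and Rarg. Only 1 gene of the list fell without any one +IAA library or −IAA 6 h replicate 2. The same count fell after correction for GC content and length. With 1 library left out, 7 or 8 rose. Cyp26a1, the main RA-degrading enzyme, was at 1.20, 1.07, 0.852 and 0.839 CPM at 0 h, 268, 246, 273 and 274 CPM at 3 h and 476, 484, 490.2 and 495 CPM at 6 h, and after the first interval the second added a fitted 1.83-fold (log2 fold change 0.87 ± 0.05, adjusted p = 5.49e-06). Its relative Cyp26b1 rose from 7.30, 6.68, 9.22 and 8.66 CPM to 18.4, 16, 19.6 and 19.5 CPM (1.21 ± 0.08). Cyp26c1, the other enzyme of this family, did not pass (log2 fold change 0.52 ± 0.19, adjusted p = 0.163). Stra6, the membrane receptor that takes up retinol, rose from 2.93, 2.74, 3.75 and 3.81 CPM to 8.14, 10.4, 8.66 and 8.20 CPM (1.43 ± 0.14).

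The receptor gene Rarb rose from 6.33, 7.77, 10.6 and 11 CPM to 15.4, 13.3, 17.9 and 16.3 CPM (log2 fold change 0.84 ± 0.11, adjusted p = 0.00132). Rara went from 48.8, 52.3, 50.8 and 47.1 CPM at 0 h to 128, 141, 135 and 131 CPM at 3 h and then fell to 123, 117, 96.7 and 100.2 CPM (log2 fold change -0.30 ± 0.07, adjusted p = 0.028). Rarg followed the same order, 236, 248, 246 and 233 CPM at 3 h against 208, 205, 178 and 184 CPM at 6 h (log2 fold change -0.32 ± 0.05, adjusted p = 0.00791). Rdh10, an enzyme of RA synthesis, lay below all 0 h libraries at 3 h and rose, standing at 3.98, 5.85, 5.65 and 6.35 CPM and then 7.53, 8.91, 7.96 and 7.80 CPM (log2 fold change 0.56 ± 0.14, adjusted p = 0.0444). The retinaldehyde reductase gene Dhrs3 (0.41 ± 0.06) and the corepressor gene Nrip1 (0.47 ± 0.05) also rose.

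Cyp26a1 and Rarb are shown with the receptor binding repeats in their promoters, since both are textbook direct targets of RA receptors. A promoter window of 250 bases before to 50 after the start (RefSeq, GRCm38.p6) was searched on both strands for DR5, a pair of half-sites with 5 bases between them. The half-site was AGGTCA or AGTTCA, or else GGGTCA or GGTTCA, and 12005 of the 15309 tested genes had a window. Capitals mark the half-sites.
Cyp26a1, chr19:37697772-37697796, plus strand of the gene, repeat read on the opposite strand: aagaTGAACTttgggTGAACTaatt
Rarb, chr14:16575509-16575533, minus strand: gaagGGTTCAccgaaAGTTCActcg
These were the 2 windows with a DR5 among 317 genes that passed as higher and had a window (0.631%), against 6 of the 12005 (0.05%) and 31 of all 27025 windows (0.115%). Of the genes called higher, 44 had a window and 0 of these held a DR5. A match is a description of the letters, not evidence of binding.

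Genes of the formative epiblast moved mainly downward. Of 15 tested, 9 fell and 1 rose, with a median of -0.35, and 9 or 10 fell in each fit that left out 1 library. Fgf5, a growth factor gene that marks this state, was at 16, 17.9, 18.1 and 17.1 CPM at 0 h, 5.61, 8.60, 6.00 and 7.52 CPM at 3 h and 2.26, 2.56, 1.87 and 2.43 CPM at 6 h, and fell by a fitted 3.04-fold in the second interval (log2 fold change -1.61 ± 0.17, adjusted p = 0.000429). Fgf15 went from 56.4, 51.5, 38.6 and 41.3 CPM to 25.1, 21.7, 18.2 and 15.2 CPM (log2 fold change -1.23 ± 0.08, adjusted p = 1.6e-05). Otx2, a homeobox gene of the epiblast and forebrain, had lost most of its level by 3 h, from 158, 174, 172 and 177 CPM to 48, 59.2, 53.2 and 56.6 CPM, and then reached 35.1, 36.3, 29 and 27 CPM (log2 fold change -0.78 ± 0.09, adjusted p = 0.00099).

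Pou3f1, which encodes the epiblast and neural factor Oct6, differed in timing. Its levels were 144, 158, 148 and 141 CPM at 0 h and 139, 137, 131 and 136 CPM at 3 h, a small step, and 85.2, 86.6, 74.3 and 82.7 CPM at 6 h, a larger one (log2 fold change -0.72 ± 0.05, adjusted p = 4.71e-05). The Wnt effector gene Lef1 fell, with a log2 fold change of -0.87 ± 0.07, and the DNA methyltransferase genes Dnmt3l (-0.45 ± 0.05), Dnmt3b (-0.35 ± 0.04) and Dnmt3a (-0.34 ± 0.05) fell less. The zinc finger gene Zic2 was the 1 member that rose (0.26 ± 0.05).

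Changes in the wider pluripotency network were small in size. Of 18 core and naive factors, 4 fell and 1 rose, none called, with a median of -0.06. For comparison, 2.5% of all genes tested passed as lower and 2.72% as higher. Utf1 fell from 165, 161, 144 and 151 CPM to 111, 118, 99.7 and 103 CPM (-0.53 ± 0.05), and Prdm14 (-0.48 ± 0.09), Fgf4 (-0.28 ± 0.05) and Esrrb (-0.22 ± 0.05) also fell. Klf4, a naive factor, rose (0.49 ± 0.12). Pou5f1 (-0.15 ± 0.05), Sox2 (-0.07 ± 0.07) and Nanog (-0.25 ± 0.07) did not pass. Without −IAA 3 h replicate 1, 8 of these factors fell and 2 rose, and the lowest counts over the 8 libraries left out were 2 and 0. All 8 ESC markers were tested, and their summed level was 3990 to 4805 CPM at 3 h and 3672 to 4007 CPM at 6 h, and 3 of the 8 fell, namely Utf1, Tdh and Esrrb.

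All members of the Nodal, FGF-ERK and Notch lists that passed were lower. Of 9 tested Nodal pathway genes 6 fell and 0 rose (median -0.29), with the antagonist gene Lefty2 going from 99.8, 91.6, 66 and 62.6 CPM to 58.8, 64, 44.1 and 40.1 CPM (-0.62 ± 0.06). Lefty1, the related antagonist, was at 73, 58.8, 47.7 and 45.3 CPM at 0 h, 234, 183, 149 and 158 CPM at 3 h and 147, 151, 125 and 131 CPM at 6 h (-0.38 ± 0.08), and for both genes the 3 h and 6 h libraries overlapped. The Nodal count was 7 without −IAA 3 h replicate 1 and 6 without its replicate 2, but 1 without +IAA 6 h replicate 1, 3 without +IAA 6 h replicate 2 and 2 without any one of the other 4 libraries. Of 14 FGF-ERK output genes 4 fell and 0 rose (median -0.15), among them Etv5 (-0.39 ± 0.04), Dusp4 (-0.51 ± 0.06) and Phlda1 (-0.70 ± 0.12), and 7 fell without −IAA 3 h replicate 1. Of 11 Notch and Hes genes 3 fell and 0 rose, namely Dll1 (-0.53 ± 0.07), Notch3 (-0.49 ± 0.08) and Notch1 (-0.28 ± 0.07), and 2 fell when any one +IAA library or −IAA 6 h replicate 1 was left out.

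Of the BMP and Id genes that passed more were higher, with 4 of 12 higher, 1 lower and a median of 0.38. The count higher was 5 without −IAA 3 h replicate 1, 3 without −IAA 3 h replicate 2, +IAA 3 h replicate 1 or +IAA 6 h replicate 1, and 2 without any one of the other 4 libraries. In UTX-AID the median was -0.04, with 1 higher. Id2, an inhibitor of helix-loop-helix factors, dipped and recovered, with 53.4, 48.7, 54.5 and 50.8 CPM at 0 h, 34.6, 40.7, 33.6 and 38.3 CPM at 3 h and 71, 70.0, 83.7 and 82.7 CPM at 6 h (log2 fold change 1.06 ± 0.08, adjusted p = 5.5e-05). Id1 rose from 102, 81.3, 75.5 and 79.9 CPM to 121, 121, 118 and 119 CPM (0.50 ± 0.08), and Id3 (0.26 ± 0.05) and Id4 (0.84 ± 0.20) also rose. The inhibitory gene Smad7 fell (-0.31 ± 0.07).

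Most lineage genes did not pass, and of all genes tested 2.72% passed as higher and 2.5% as lower. Of 27 neural transcription factors 3 rose, Olig3, Irx3 (0.63 ± 0.10) and Irx5 (0.77 ± 0.13), and 1 fell, Gbx2 (-0.38 ± 0.06). Of 11 endoderm factors 2 rose, among them Gata6 (0.78 ± 0.16), and 1 rose when any one +IAA or −IAA 6 h library was left out. Gata4 had 0.805, 1.17, 0.536 and 0.963 CPM at 3 h and 1.31, 1.55, 0.985 and 0.862 CPM at 6 h and did not pass (log2 fold change 0.42 ± 0.28, adjusted p = 0.458). The orphan receptor gene Nr6a1, known to act against pluripotency genes, rose from 158, 223, 219 and 230.0 CPM to 321, 326, 349 and 339 CPM (0.69 ± 0.09), while Esrrb and Nr2f6 (-0.35 ± 0.09) of the same list of 11 fell, although 0 of this list fell when any one +IAA library or −IAA 6 h replicate 1 was left out, and 1 without −IAA 6 h replicate 2. The neurofilament gene Nefl fell from 31.9, 32.3, 36.2 and 39.2 CPM to 20.9, 18.6, 23.5 and 23.9 CPM (-0.68 ± 0.06), 1 of 2 neuronal cytoskeleton and axon genes that fell of 11 tested.

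Of 22 cell migration and guidance genes, 6 rose and 2 fell, while 2.72% of all genes tested passed as higher and 2.5% as lower. The count higher was 3 without +IAA 3 h replicate 2, either +IAA 6 h library or −IAA 6 h replicate 2, and 4 without −IAA 3 h replicate 2 or −IAA 6 h replicate 1, and 5 fell without −IAA 3 h replicate 1. The receptor gene Ephb2 rose from 9.02, 9.92, 9.40 and 10.8 CPM to 16.4, 16.1, 15.5 and 15.8 CPM (0.71 ± 0.08), and Sema3e (0.66 ± 0.09), Epha7 (0.95 ± 0.19) and the chemokine gene Cxcl12 (0.42 ± 0.08) rose. Unc5b, a netrin receptor gene, fell (-0.39 ± 0.05), as did Epha2. Of 18 immediate early genes 1 fell, Egr1 (-0.39 ± 0.07), and of 16 Wnt genes 1, Lef1. At the share of all genes, lists this short would hold few or none, so 1 member does not set them apart. LIF and STAT3 targets had 1 higher and 2 lower of 12, the lower ones being Gbx2 and the feedback inhibitor Socs3 (-0.57 ± 0.12), and 0 rose unless a −IAA 3 h library was the one left out. Without −IAA 3 h replicate 1, 3 immediate early genes, 3 neural transcription factors and 4 neuronal cytoskeleton and axon genes fell, and 1 of the last list without +IAA 6 h replicate 1.

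For genes of general stress and metabolism, 0 of 14 integrated stress response genes, 0 of 18 cholesterol synthesis genes, 0 of 16 hypoxia and glycolysis genes and 0 of 14 clock genes passed, with medians between -0.11 and -0.04. As 2.72% of all genes tested passed as higher and 2.5% as lower, lists this short would hold few or none at those shares. These counts therefore do not set the lists apart from other genes. A single gene fell among 14 p53 targets, Bbc3 (-0.40 ± 0.09), and among 12 heat shock genes, Bag3 (-0.28 ± 0.06), and 0 of 7 two-cell-like genes passed. After correction for GC content and length, 0 p53 targets and 0 heat shock genes fell. The p53 count was also 0 without any one +IAA library or −IAA 6 h replicate 1. The heat shock count was 0 unless −IAA 3 h replicate 1 was the library left out. Without −IAA 3 h replicate 1, 7 hypoxia and glycolysis genes fell and 2 rose, 5 p53 targets fell and 1 rose, and 1 heat shock gene fell and 2 rose. Cyp1b1, a target of the aryl hydrocarbon receptor, rose from 0.536, 0.633, 6.00 and 6.39 CPM to 1.39, 1.41, 8.77 and 9.10 CPM (log2 fold change 0.80 ± 0.16, adjusted p = 0.0179), at levels that differed between the arms. The 13 mitochondrially encoded genes were not analysed here.

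Most tested markers of other cell types did not pass. Trophoblast markers summed to 29.5 to 30.9 CPM at 3 h and 27.0 to 30.3 CPM at 6 h, with 1 of 5 tested higher (Tfap2c, 0.38 ± 0.09). Primitive endoderm markers summed to 51.2 to 63.8 CPM and then 58.7 to 64.6 CPM, with 1 of 8 higher (Gata6). Fibroblast markers summed to 11.7 to 13.3 CPM and then 9.72 to 13.6 CPM, with 1 of 4 higher (Pdgfrb, 0.83 ± 0.15) and 1 lower (Thy1, -0.86 ± 0.19). Neural markers summed to 121 to 140.0 CPM and then 118 to 131 CPM, with 1 of 6 lower (Tubb3, -0.29 ± 0.05). In the fibroblast, trophoblast and neural lists 1 member each was at 0 in all 8 libraries, namely Postn, Elf5 and Neurog2. Of the primitive endoderm markers 0 were. Other members of each list had reads, so these values do not show that a cell type was absent.

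**Figure D2:**
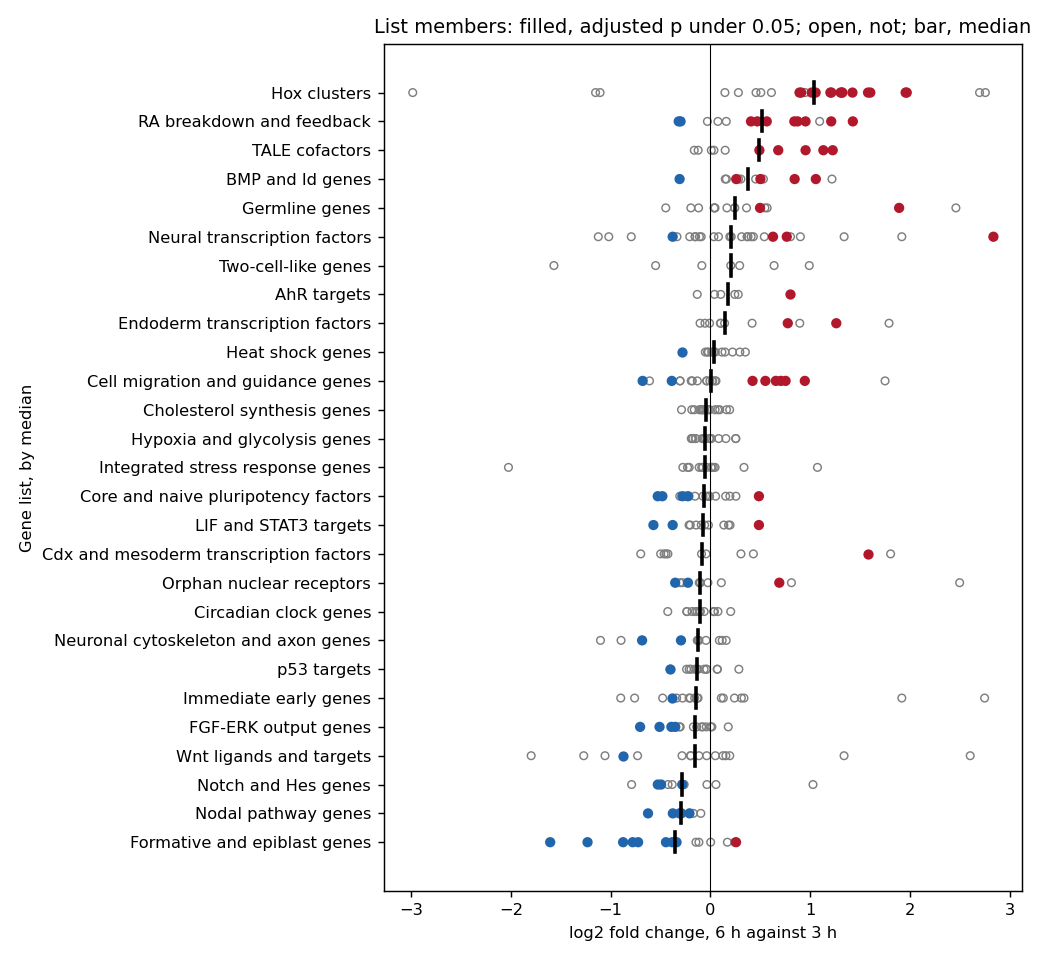
Each row is a gene list and each point a tested member, placed by its log2 fold change of 6 h against 3 h in BAP1-AID. Filled points passed an adjusted p of 0.05 (red higher, blue lower), open points did not, and the black bar is the median of the list, from 1.04 for the Hox clusters to -0.35 for the formative genes.

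The remaining genes called lower were mostly at low levels. Tgoln2, a trans-Golgi membrane protein gene, had 0.339, 1.17, 0.170 and 0.479 CPM at 0 h, 2.08, 2.50, 2.35 and 6.39 CPM at 3 h and 0.604, 1.08, 0.696 and 0.361 CPM at 6 h (log2 fold change -2.22 ± 0.43, adjusted p = 0.0145). Tgoln1, a near-identical copy that could share its reads, was at 52.6, 65.9, 75.6 and 71.1 CPM and 67.7, 62.4, 68.8 and 69.7 CPM, so the values of Tgoln2 are uncertain. Exoc3l, related to a subunit of the exocyst, fell from 13.1, 12.4, 8.72 and 6.21 CPM to 3.46, 5.15, 3.42 and 2.51 CPM (-1.45 ± 0.17). Others included the glutamate receptor gene Grm6 (-1.36 ± 0.27), the orphan receptor gene Gpr162 (-1.43 ± 0.25), the iodide transporter gene Slc5a5 (-1.16 ± 0.20) and the iron exporter gene Slc40a1 (-1.11 ± 0.27). Arhgef28, an exchange factor gene, fell from 13.4, 18.9, 21.3 and 22.2 CPM to 7.93, 9.26, 9.22 and 8.54 CPM (-1.10 ± 0.12), and the catenin gene Ctnnd2 fell, with a log2 fold change of -1.07 ± 0.14. Btbd17 (-1.34 ± 0.27), R3hdml (-1.18 ± 0.21), Ccdc194 (-1.09 ± 0.26), Vwa2 (-1.08 ± 0.26) and Slc35f1 (-1.06 ± 0.26) complete the 15.

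**Figure D3:**
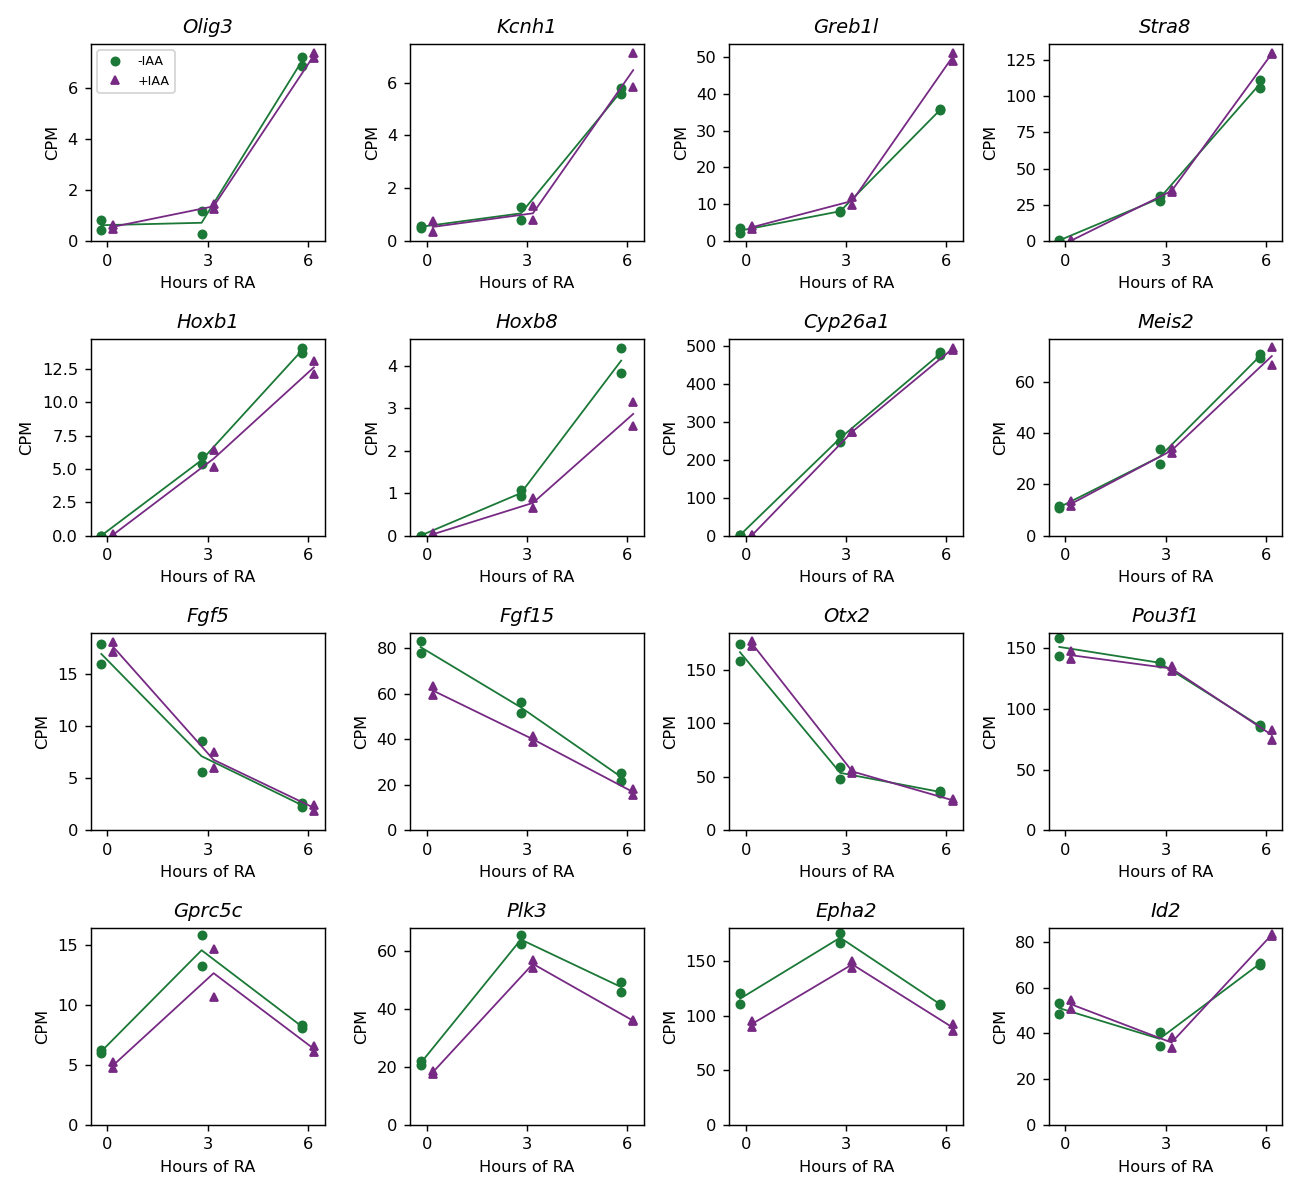
The level of 16 genes in CPM (vertical axes, each from 0) is plotted against hours of RA (0, 3 and 6) in the BAP1-AID line, with 1 point per library, −IAA as green circles and +IAA as purple triangles, and lines through the means of 2 libraries. The top row shows Olig3, Kcnh1, Greb1l and Stra8 and the second row Hoxb1, Hoxb8, Cyp26a1 and Meis2, all higher at 6 h than at 3 h. The third row shows genes that fell, and the last row Gprc5c, Plk3 and Epha2, highest at 3 h, and Id2, lowest at 3 h.

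Whether genes induced by 3 h fell back was examined across arms, because within an arm the 3 h libraries enter both intervals and a gene chosen for a high 3 h value would tend to fall by that choice. Genes called higher at 3 h than at 0 h in one arm were followed from 3 h to 6 h in the other, in one fit of the 12 BAP1-AID libraries over 15695 genes. Of 297 genes called higher by 3 h in −IAA (1.89% of those tested), 30 were called higher again in +IAA (10.1%, against 0.389% of all genes) and 2 were called lower (0.673%, against 0.236%), Btbd17 and the protocadherin gene Pcdh8. By the adjusted p alone the counts were 67 (22.6%, against 2.84%) and 11 (3.7%, against 2.12%), with 219 passing neither way. In the exchanged crossing, of 322 genes called in +IAA (2.05%), 26 were called higher in −IAA (8.07%, against 0.274%) and 0 called lower, and 63 passed higher (19.6%, against 1.09%) and 4 lower (1.24%, against 0.892%). Their median log2 fold change in the second interval was 0.37 in both crossings.

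In each crossing more early risers passed as higher again than as lower. Genes called higher by 3 h in the UTX-AID line (1.49% of 16268 tested there), 239 of which could be tested here, gave 91 passing higher (38.1%) and 11 lower (4.6%) from 3 h to 6 h in BAP1-AID, with 36 and 1, Pcdh8, called. Of all 15309 genes tested for that interval, 2.72% passed higher and 2.5% lower, and 0.464% and 0.124% were called. Btbd17 was at 1.15, 0.664, 0.909 and 0.919 CPM at 0 h, 2.76, 2.51, 2.70 and 1.82 CPM at 3 h and 1.69, 1.12, 0.734 and 0.541 CPM at 6 h. Pcdh8 was at 2.52, 3.08, 5.38 and 7.61 CPM at 0 h, 4.31, 8.18, 9.36 and 11.4 CPM at 3 h and 2.62, 2.86, 5.02 and 4.49 CPM at 6 h, and its times overlapped. No gene called higher by 3 h was called lower afterwards in both crossings. By the adjusted p alone, a rule chosen after seeing the data, 4 of the 235 genes called higher by 3 h in both arms fell in both, and 46 rose in both. Since both arms then enter both steps, these 2 counts share libraries and are a description. The shares of all genes that passed in both arms were not computed.

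The 4 genes were Gprc5c, Kazn, Pgpep1 and Plk3. Gprc5c, an orphan receptor gene known as RA-inducible, went from 6.00, 6.23, 5.23 and 4.71 CPM at 0 h to 15.8, 13.2, 10.6 and 14.6 CPM at 3 h and 8.06, 8.32, 6.09 and 6.56 CPM at 6 h, close to where it began (-0.91 ± 0.11). Plk3, a polo-like kinase gene, went from 20.6, 22, 17.6 and 18.6 CPM to 65.7, 62.4, 54.2 and 57 CPM and then 45.8, 49.4, 35.7 and 36.2 CPM (-0.53 ± 0.06), still above every 0 h library. Kazn, which encodes a cell junction protein, reached 64.5, 60.4, 62.3 and 61.6 CPM at 3 h and 48.8, 45.8, 47.9 and 47.9 CPM at 6 h from 25.3, 23.8, 22.8 and 25.4 CPM (-0.39 ± 0.05). Pgpep1, a peptidase gene, had a log2 fold change of -0.41 ± 0.06.

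With the fold threshold dropped at 3 h as well, 14 of 550 genes that were higher by 3 h in both arms were lower at 6 h in both. Of all genes, 2.12% passed as lower in +IAA and 0.892% in −IAA. The share lower in both arms was not computed. Both arms entered both steps here too, so this count is a description. Among them the ephrin receptor gene Epha2 overlapped its 0 h libraries again at 6 h, going from 111, 120.4, 89.4 and 95.5 CPM at 0 h to 167, 176, 144 and 150.2 CPM and 110.1, 111, 92.8 and 85.8 CPM (log2 fold change -0.68 ± 0.05, adjusted p = 5.5e-05). Kirrel2, encoding a cell adhesion protein, went from 11.5, 10.7, 10.9 and 10.4 CPM to 23.1, 23.5, 20.5 and 20.7 CPM and 13.7, 13.7, 10.8 and 10.7 CPM (-0.85 ± 0.07), and Tcf15, a factor that marks cells leaving the naive state, ended below its start, at 31.8, 32, 30.8 and 27.8 CPM, 45.8, 43.3, 38.5 and 35.8 CPM and 26.6, 25.5, 27.5 and 25.8 CPM (-0.63 ± 0.07). Dnmt3a and Gbx2 were also in this set, with Gse1, Icam1, Kcnk5, Mcam and Zswim1.

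Early fallers that passed again between 3 h and 6 h were lower in both crossings. Of 56 genes called lower by 3 h in −IAA (0.357% of all tested), 9 passed lower in +IAA (16.1%, against 2.12%) and 0 higher, with 2.84% of all genes higher. Of 57 called in +IAA (0.363%), 4 passed lower in −IAA (7.02%, against 0.892%) and 0 higher. Of 40 genes called lower by 3 h in UTX-AID (0.27% there) and tested here, 3 passed lower (7.5%, against 2.5% of all genes) and 1 higher (2.5%, against 2.72%), the Ras exchange factor gene Rasgrp3 (1.06 ± 0.23). Fgf5, Lef1, Otx2 and Vrtn, a gene linked to vertebral number, did so in both crossings, and Vrtn fell from 32.1, 26.8, 22.6 and 23.1 CPM to 17.8, 16.3, 12.4 and 13.1 CPM (-0.81 ± 0.08). By the adjusted p alone, 1 of 159 early fallers (1.85% of all genes were lower by 3 h in −IAA and 1.91% in +IAA) was higher at 6 h in both crossings, namely Id2. Counts over both crossings share libraries between the steps, as above, and are a description.

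**Figure D4:**
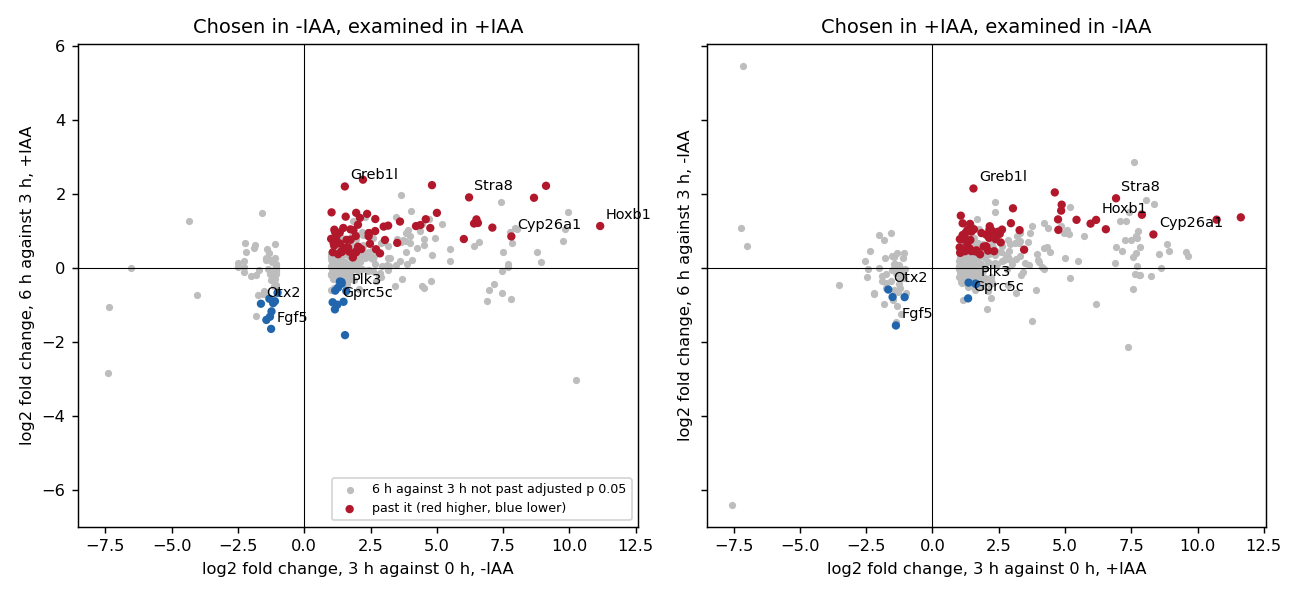
Genes called between 0 h and 3 h in one IAA arm are plotted by that log2 fold change (horizontal) against their log2 fold change from 3 h to 6 h in the other arm (vertical), with genes chosen in −IAA in the left panel and in +IAA in the right. Red and blue points passed an adjusted p of 0.05 in the second interval, and more of the risers lie above 0 than below it; folds of genes absent at 0 h depend on the prior count of the fit.

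The onset of the later rise was read the same way. Of 43 genes called higher from 3 h to 6 h in −IAA, 29 had passed as higher by 3 h in +IAA (67.4%, against 4.61% of all genes) and 13 passed in neither direction. Of 61 called in +IAA, 31 had passed as higher by 3 h in −IAA (50.8%, against 5.51%) and 29 passed in neither. For the genes that passed in neither, a level equal to that at 0 h was not shown.

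The arms were then compared. The difference between the arms in the second interval was called for 8 of 15309 genes (0.0523%) and passed for 45 (0.294%), all of them higher with IAA, with 1111 at an unadjusted p under 0.05. The leading genes were Rif1, Cenpf, Zfp292 and Akap9, and the 2 arms of each already differed at 0 h. Rif1, a telomere and replication timing factor gene, stood at 105, 114, 184 and 192 CPM at 0 h, 126, 119, 177 and 181 CPM at 3 h and 108, 106, 295 and 299.9 CPM at 6 h, a difference of 0.93 ± 0.09 between the log2 fold changes (adjusted p = 0.0207). After correction for GC content and length, chosen after seeing the data, 2 genes were called (0.0131%) and 7 passed (0.0457%). Without either −IAA 6 h library or either +IAA 3 h library 0 genes passed, without either +IAA 6 h library 1 did, and without −IAA 3 h replicate 1 or 2 the counts were 396 and 3115. GC content, length and the −IAA 3 h libraries thus moved with this count, and their part in it was not tested further.

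For 2 induced genes the test of the arms did not pass. Cyp26a1 had a difference between the arms of -0.05 ± 0.09 (adjusted p = 0.904) and Stra8 of 0.03 ± 0.11 (0.967), both as +IAA minus −IAA on the log2 scale. A p that misses the threshold does not show that the arms acted alike.

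The same interval in UTX-AID gave fewer calls. There 13 genes were called higher (0.0817% of 15908 tested) and 8 lower (0.0503%), with 124 (0.779%) and 177 (1.11%) passing. Of the 71 genes called higher in BAP1-AID, 69 could be tested in UTX-AID: 25 passed higher (36.2%), 1 lower, Rsc1a1, and the median was 0.67. Of the 19 called lower, 5 passed lower (26.3%) and 0 higher, with a median of -0.63. The libraries of the 2 lines are separate, so these counts are independent of the choice of genes, though sizes in the line used for the choice are not. In the reverse direction, of 12 genes called higher in UTX-AID and tested in BAP1-AID, 9 were called higher, with a median of 1.43, and of 8 called lower, 5 passed lower and 1 higher, with a median of -0.83.

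Cyp26b1 (1.16, adjusted p = 0.00172), Greb1l (1.30, 0.000214) and Meis2 (0.67, 0.00196) rose in UTX-AID, and Fgf5 (-1.53, 0.0434), Fgf15 (-0.67, 0.0025) and Otx2 (-1.12, 0.0015) fell. The lists with most movement gave 7 of 25 Hox genes higher, 5 of 15 RA breakdown genes higher and 1 lower, and 7 of 15 formative genes lower and 2 higher. Olig3 had 0.0714, 0.289, 0.111 and 0 CPM at 3 h and 0.406, 0.749, 0.832 and 0.569 CPM at 6 h in UTX-AID, which did not pass (2.53, adjusted p = 0.195). Meis1, with 0.15 there, did not pass either (adjusted p = 0.763).

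A test of the difference between lines, BAP1-AID minus UTX-AID, called 1 of 16467 genes (0.00607%), Rsc1a1, and 5 passed (0.0304%), with 1450 at an unadjusted p under 0.05. Stra8 rose further in BAP1-AID: UTX-AID had 32, 32.8, 27.8 and 26.9 CPM at 3 h and 64, 64, 56 and 55.3 CPM at 6 h, a difference in log2 fold change of 0.88 ± 0.07 (adjusted p = 3.66e-06). The 5 genes became 2 to 15 when 1 library was left out, with 15 without BAP1-AID −IAA 3 h replicate 1. Homer2, a postsynaptic scaffold gene, differed by 0.60 ± 0.09 and Dock6, a guanine nucleotide exchange factor gene, by 0.44 ± 0.07. Each tag is held by 1 line, so line and tag cannot be told apart.

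**Figure D5:**
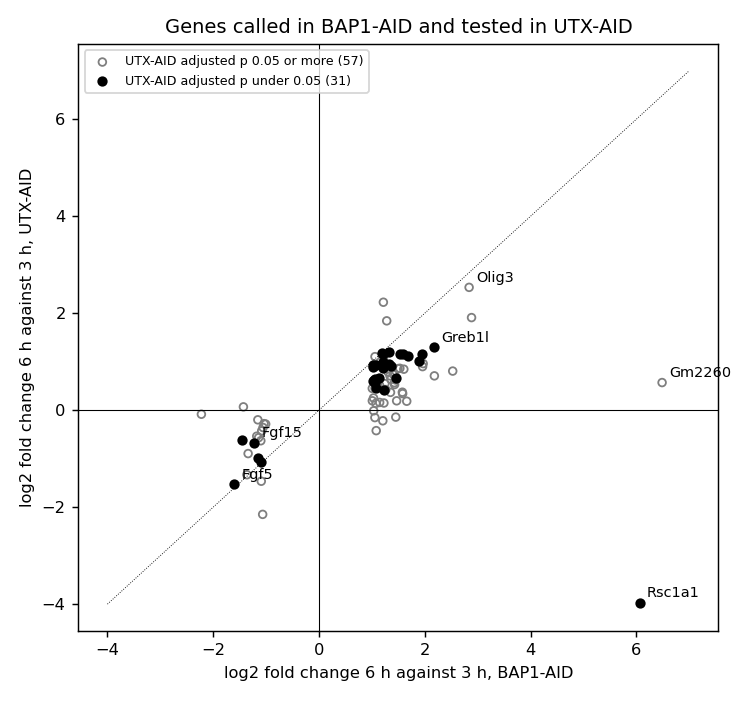
For the 88 genes called in BAP1-AID that could be tested in UTX-AID, the log2 fold change of 6 h against 3 h in UTX-AID (vertical) is plotted against that in BAP1-AID (horizontal), with a dotted line of equality. Filled points passed in UTX-AID (31 genes), open ones did not (57); Rsc1a1 lies in the opposite quadrant. The genes were chosen for their change in BAP1-AID, so the distance from the line is not read.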

How the data were processed

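Poly(A) RNA from 24 mouse ESC libraries was measured, and 8 BAP1-AID libraries were compared, 4 after 6 h with RA and 4 after 3 h, with 2 for each IAA arm and time. Per the labels, reads were processed by the authors with HISAT2 2.2.1, SAMtools 1.19 and StringTie 2.2.1 against mm39, and the deposited values are estimated counts per gene, written as whole numbers. The gene annotation, strandedness and filters are not given in the sources used here.

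Groups were taken from the labels. Counts were tested with edgeR 4.0.16 (R 4.3.3; TMM, filterByExpr with a minimum count of 10, quasi-likelihood F test, IAA arm as covariate) with Benjamini-Hochberg adjustment over all genes tested. The SE is the log2 fold change divided by the square root of F. The test of the arms added an interaction term, and the tests across arms used 1 coefficient per group over 12 libraries. The steps were tested on simulated data. Totals were 48392851 to 52766527 counts a library, and limits of detection cover counting error only.

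Members and lists were chosen with earlier results of these data known. Named genes were the 15 called higher and 15 called lower with the largest changes (libraries separated, mean of at least 1 CPM at the higher time), up to 6 predicted genes, up to 6 passing members of each list, leading genes of the tests of arms and lines, and genes the study names. Others, among them Ddi2, Tgoln1, Dsc3, Pcdh8, Vrtn, Rasgrp3, Aurkc and the genes that fell back by adjusted p, were chosen after their values were seen. Alternatives were RLE size factors, DESeq2 1.42.0, no filter, a block for the replicate number, the 12 BAP1-AID libraries together, single arms, splines on GC content and length (GC values for 96.7% of tested genes) and leaving out each library. Gene positions are from GENCODE on mm39, and promoter windows from RefSeq on GRCm38.p6. Some results are not reported here.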

Additional observations from a re-analysis of the deposited data

Results flagged for a closer look

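A test of the difference between the IAA arms put 4 genes first in the second interval, all higher with IAA and given as differences in log2 fold change (edgeR quasi-likelihood test, Benjamini-Hochberg adjusted p = 0.0207 for each). Rif1 differed by 0.93 ± 0.09, Cenpf, a kinetochore gene, by 0.98 ± 0.10, Zfp292, a zinc finger gene, by 0.92 ± 0.10, and Akap9, a scaffold gene of the centrosome and Golgi, by 1.12 ± 0.12. Cenpf stood at 42.5, 46.1, 69.3 and 70.2 CPM at 3 h and 42.1, 42.8, 134 and 130.5 CPM at 6 h, with both +IAA libraries above both −IAA libraries at each time. After correction for GC content and length all 4 still passed, with Rif1 at 0.72 (adjusted p = 0.0345).

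A test of the difference between the BAP1-AID and UTX-AID lines passed for 5 genes, each with a larger change in BAP1-AID. They were Stra8 (0.88 ± 0.07), Rsc1a1 (10.03 ± 1.12), Homer2 (0.60 ± 0.09), Dock6 (0.44 ± 0.07) and the muscle actinin gene Actn3 (0.55 ± 0.09), with adjusted p of 3.66e-06, 0.000293, 0.0193, 0.0193 and 0.0273. Actn3 rose from 45.4, 41.2, 42.1 and 40.5 CPM to 81, 79.2, 60.7 and 65.9 CPM in BAP1-AID. Rsc1a1 shares its position with Ddi2, and its value is uncertain.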

How the results depend on the processing

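RLE size factors, no filter on low counts and correction for GC content and length left the counts called higher (65 to 70) and lower (16 to 21) within 1.5 times of 71 and 19. DESeq2 called 93 and 30 genes, and all 12 libraries 65 and 29. The −IAA libraries alone gave 20 and 1, the +IAA libraries alone 113 and 61, with 4 libraries in each fit. By adjusted p alone (417 and 383), DESeq2 gave 717 and 676, all 12 libraries 679 and 599, −IAA alone 26 and 2, and +IAA alone 1285 and 1176. Leaving out 1 library gave 54 to 88 called higher, 13 to 24 called lower, and 207 to 1112 and 173 to 987 by adjusted p alone, the highest of the last 2 without −IAA 3 h replicate 1.

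The difference between arms (8 called, 45 by adjusted p) became 40 and 162 with DESeq2, 4 and 18 with no filter, and 2 and 7 with GC and length correction, and leaving out 1 library gave 0 to 142 and 0 to 3115. The difference between lines (1 called, 5 by adjusted p) became 15 and 62 with DESeq2, 8 by adjusted p with no filter, and 1 to 3 and 2 to 15 with 1 library left out. Genes that rose by 3 h and were then called lower numbered 2, and 0 with the arms exchanged, 1 when chosen in UTX-AID and 34 of 865 when the fold threshold was dropped for both the choice at 3 h and the later step, and those called higher numbered 30, and 199 of 865 with the threshold dropped for both. The cause of these changes was not tested.

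Same-numbered replicates did not deviate together (correlations of -0.03 to 0.02), so the numbers were not taken to pair the samples. With the replicate number as a block, 64 genes were called higher and 15 lower, the difference between arms was called for 3 genes and passed for 13, and that between lines was called for 3 and passed for 9.

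Log2 fold changes of low genes rest on few counts, and 21 of the 71 genes called higher had a mean below 1 CPM at 3 h. With 2 libraries for each arm and time, smaller differences can be missed.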

Other observations

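Aurkc and Homer2, which are in none of the lists, rose in the second interval. Aurkc, an aurora kinase gene active in germ cells, was at 2.75, 2.34, 2.25 and 2.54 CPM at 0 h, 16.9, 15.8, 18.8 and 18.5 CPM at 3 h and 35.7, 39.7, 48.2 and 44.7 CPM at 6 h, with no overlap between times (log2 fold change 1.26 ± 0.07, adjusted p = 5.49e-06, edgeR). Homer2 was at 8.62, 6.26, 8.83 and 8.17 CPM at 0 h, 27.9, 26.1, 39.4 and 36.6 CPM at 3 h and 60.7, 57, 77.1 and 77 CPM at 6 h (log2 fold change 1.07 ± 0.06, adjusted p = 5.49e-06). Aurkc was chosen after its values were seen.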
